A study of Homo sapiens with 2 samples.

Results

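The genes described here belong mostly to families of enzymes, motor proteins and their partner subunits that modify or move chromatin. They were chosen by gene symbol from the platform annotation of an Illumina HumanWG-6 BeadChip, taking every probe for the HDAC, SIRT, KAT, KMT, SETD, KDM, PRMT, DNMT, TET, SMARC and CHD families and for EZH1, EZH2, EED and SUZ12. The choice used no measured value. It took 157 of 48802 probes, which stand for 102 of 18665 named genes. Of these genes, 1 lies on chromosome Y and its values are not reported, which leaves 101 genes on 156 probes. The KAT prefix also caught 5 katanin genes, KATNA1, KATNAL1, KATNAL2, KATNBL1 and KATNIP, of a group best known for cutting microtubules, and the HDAC prefix caught the antisense RNA gene HDAC11-AS1. These 6 genes are not chromatin enzymes. They are counted among the 101, and the main counts are also given without them. Some other members are not chromatin enzymes either, such as the mitochondrial SIRT4 and SIRT5, and stay in both sets of counts.

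The arrays compared KYN2 cells labelled HSF1 knockdown with control KYN2 cells. KYN2 is an established human hepatocellular carcinoma line, and HSF1 is the transcription factor that turns on chaperone genes under protein stress. Per the labels' protocols, the knockdown cells were made by transfecting an shRNA plasmid against HSF1 and selecting stable lines with puromycin, while the labels describe neither the vector of the control cells nor whether a line was 1 clone. Each group is 1 array with no further treatment or time point, so the differences below describe these arrays, with no test and no measure of the spread between cultures.

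In the nucleus, DNA is wound on histones, and enzymes write and erase small marks on the histone tails. KAT enzymes add acetyl groups, which open chromatin, and HDAC and SIRT enzymes remove them. KMT, SETD and EZH enzymes add methyl groups to lysines, KDM enzymes remove them and PRMT enzymes methylate arginines. DNMT enzymes methylate DNA and TET enzymes start the removal of that mark. SMARC and CHD proteins include the motors that use ATP to slide or evict nucleosomes. In liver cancers, genes of these families are among those often mutated or overexpressed.

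The targeted gene did not settle the knockdown label. The brighter HSF1 probe had a signal of 58.2 on the knockdown-labelled array and 164.3 on the control array, but its detection p was 0 on the knockdown-labelled array and 0.00527 on the control array. On the knockdown-labelled array, 459 other probes with nearly the same signal had a detection p from 0.236 to 0.246. The second HSF1 probe gave signals of 81.3 on the knockdown-labelled array and 77.9 on the control array, with neither called detected. The arrays are therefore named by their labels, and each direction below rests on them. Median signals over all probes were 59.8 on the knockdown-labelled array and 61.5 on the control array. Of 9 hepatocyte markers measured, 7, ALB and TF among them, were detected on both arrays, FGB on the control array alone and TTR on the knockdown-labelled array alone. Their levels did not move together. AHSG had signals of 899.8 on the knockdown-labelled array and 4602.2 on the control array, a log2 difference of -2.23, and APOB was at -1.91, while TF was at 0.81 and ALB at 0.12. Of 5 markers of liver progenitors and liver cancer, SOX9 (signals of 642.6 on the knockdown-labelled array and 56.1 on the control array), AFP and EPCAM passed detection only on the knockdown-labelled array, GPC3 on both arrays and KRT19 on neither. The summed signal of these 5 genes was 1144.3 on the knockdown-labelled array and 370.9 on the control array. None of 6 fibroblast and 4 endothelial markers was detected on either array. Of 5 leukocyte markers measured, CD68 was detected on both arrays and LYZ and CD14 on the knockdown-labelled array alone, while PTPRC, which marks all leukocytes, was detected on neither. The summed signal of the 5 leukocyte genes was 1396 on the knockdown-labelled array and 794.5 on the control array. The part of the liver, progenitor and leukocyte markers in the differences below was not tested. In bulk RNA such as this, fewer cells with a transcript and less of it per cell cannot be told apart.

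Most of the chromatin genes that could be measured lay within 2-fold, and as many were 2-fold higher as 2-fold lower. Detection meant a detection p below 0.01, each gene was read from its brightest probe, and differences are given as log2 of the knockdown-labelled over the control level after background correction and quantile normalization. Of the 101 genes, 60 were detected on both arrays, 6 on the knockdown-labelled array alone, 3 on the control array alone and 32 on neither. Of the 60, 5 were higher by 2-fold or more, a difference that 9.89% of all genes with detection on both arrays showed, and 5 were lower by 2-fold or more, as were 10.4% of all genes. Without the katanin and antisense genes the counts were again 5 and 5, of 58 genes, with a median difference of 0.02 and 55.2% above 0. A 2-fold difference in either direction was seen for 16.7% of the members and for 20.3% of all 7511 genes with detection on both. The median difference was 0.08 over the members and -0.06 over all genes, and the interquartile range was 0.80 for the members and 0.98 for all genes. A share of 56.7% of the members lay above 0, against 46.7% of all genes. Read against these values for all genes, the members as a whole did not differ more often than other genes on these arrays.

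**Figure D1:**
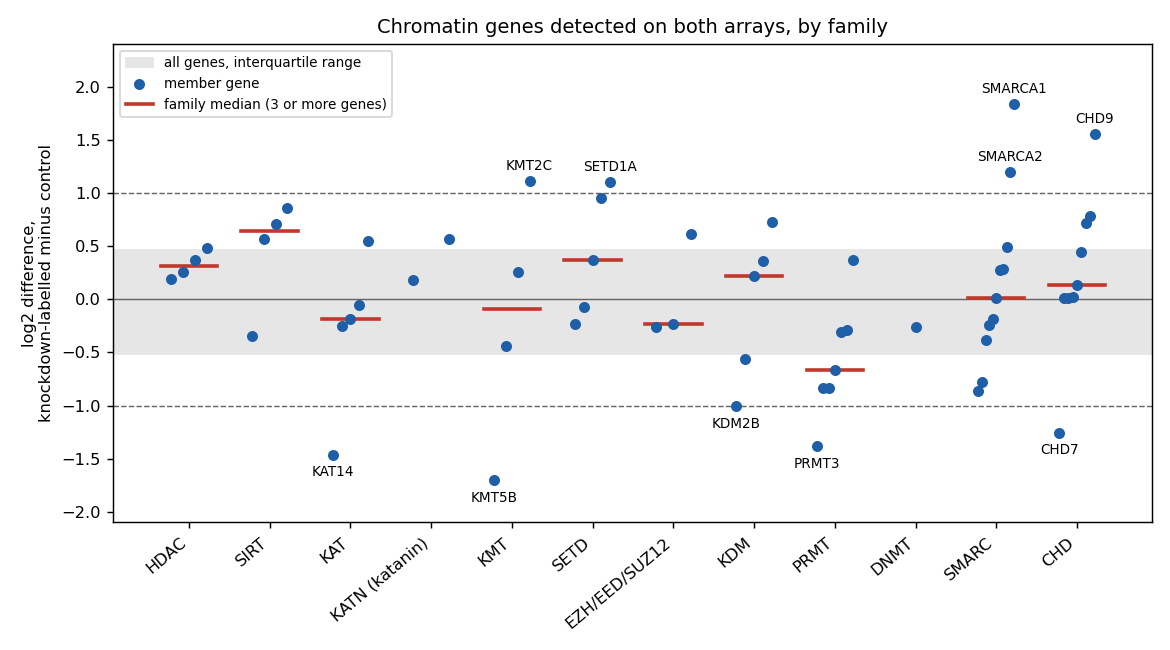
Log2 difference, knockdown-labelled minus control, of each of the 60 members detected on both arrays, by family; red lines are family medians, the grey band is the interquartile range of all genes, and dashed lines mark 2-fold. Named points are the 5 members above and the 5 below 2-fold, and most PRMT genes lie below 0.

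The 5 higher members detected on both arrays were motors and writers of an activating histone mark. SMARCA1, the motor of ISWI remodellers that space nucleosomes, had a signal of 2587.9 on the knockdown-labelled array and 866.9 on the control array, a difference of 1.84 or 3.58-fold. CHD9, a motor of the CHD family, had signals of 765.0 on the knockdown-labelled array and 314.0 on the control array, a difference of 1.55. These were the largest increases among the members detected on both arrays. SMARCA2, known as BRM, 1 of the alternative motors of SWI/SNF complexes, had signals of 286.3 on the knockdown-labelled array and 153.2 on the control array, a difference of 1.19. KMT2C, which places a single methyl group on lysine 4 of histone H3 at enhancers, had signals of 265.9 on the knockdown-labelled array and 149.4 on the control array, a difference of 1.11. SETD1A, which methylates the same lysine at promoters, had signals of 879.1 on the knockdown-labelled array and 470.9 on the control array, a difference of 1.10. SMARCA2 and KMT2C stayed past 2-fold in 2 of 5 other settings each, and lay at 0.95 and 0.87 in the authors' processed values, where 3 members were higher. For SMARCA2 and KMT2C, 1 of these 2 settings was the probe mean, which repeats the main value when 1 probe is detected on both arrays.

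The 5 lower members were 4 genes tied to different histone or protein marks and the motor gene CHD7. KMT5B, which adds methyl groups to lysine 20 of histone H4, had the largest decrease, with signals of 138.2 on the knockdown-labelled array and 374.3 on the control array, a difference of -1.70 or 3.26-fold. KAT14, an acetyltransferase subunit of the ATAC complex, had signals of 292.9 on the knockdown-labelled array and 803.1 on the control array, a difference of -1.46. PRMT3, an arginine methyltransferase whose best known substrate is a ribosomal protein, had signals of 672.5 on the knockdown-labelled array and 1906.1 on the control array, a difference of -1.38. Each of these was lower by 2.61-fold or more. CHD7, a motor of the CHD family mutated in CHARGE syndrome, had signals of 168.2 on the knockdown-labelled array and 362.7 on the control array, a difference of -1.26. KDM2B, which brings a variant Polycomb complex to CpG islands, had signals of 740.7 on the knockdown-labelled array and 1638.6 on the control array, a difference of -1.01. KDM2B lay at the threshold and was below 2-fold in 3 of 5 other settings, while SETDB2, at 0.95, lay just under it on the other side. The probe mean, another of these settings, repeats the KDM2B value, since 1 of its probes was detected on both arrays.

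**Figure D2:**
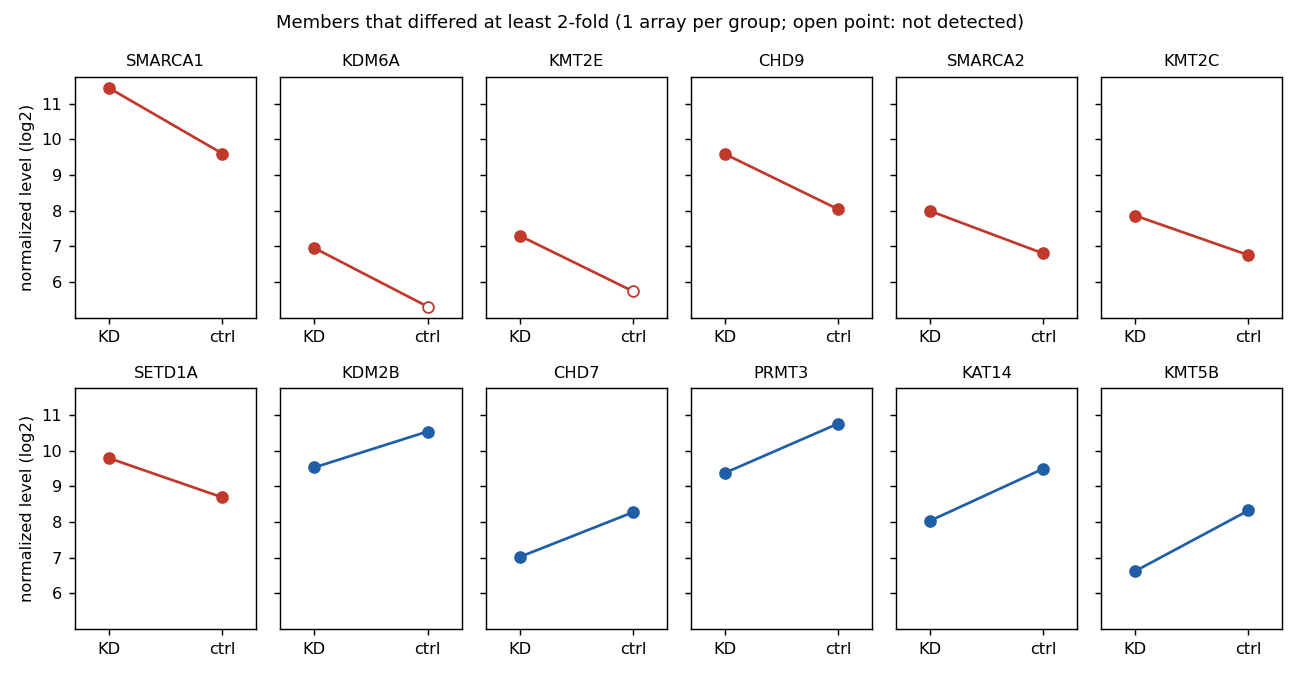
Normalized log2 level, after background correction, of the 12 members that differed at least 2-fold on that scale, on the knockdown-labelled array (KD, left) and the control array (ctrl, right), 1 array each; red genes were higher and blue genes lower on the knockdown-labelled array. Open points for KDM6A and KMT2E mark levels that were not called detected on the control array. Each gene is shown on its brightest probe, and another KMT2E probe, detected on both arrays, was at 0.38.

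Among the members with detection on 1 array, 2 were higher on the knockdown-labelled array by a bound of 2-fold or more on the background-corrected scale, and 1 without background correction. KMT2E, a relative of the H3 lysine 4 methyltransferases that lacks their activity, had signals of 195.3 on the knockdown-labelled array and 94.1 on the control array, a plain ratio of 2.08-fold. Against the control array's detection limit, its brightest probe was at least 2.76-fold higher after background correction and at least 2.03-fold higher without it. That probe's detection p on the control array was 0.0105, just above the threshold of 0.01. Another KMT2E probe, detected on both arrays, was at 0.38, or 1.31-fold higher, so the bounds hold for the brightest probe alone. KDM6A, which removes the Polycomb mark from lysine 27 of histone H3, had signals of 162.8 on the knockdown-labelled array and 80.3 on the control array, a plain ratio of 2.03-fold. It was at least 2.17-fold higher after background correction and at least 1.69-fold higher without it. These were 2 of 6 members detected on the knockdown-labelled array alone, and 23.8% of all such genes passed this bound. The other four were KMT2A, SIRT2, KDM4A and KATNAL2, with bounds from 1 to 1.28-fold. On the control array alone were DNMT3B, lower by a bound of 1.56-fold, HDAC4, by 1.36-fold, and HDAC6, by 1.17-fold, so 0 of 3 passed 2-fold, where 27.9% of all such genes did.

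The direction held across probes for most members with more than 1 probe detected on both arrays. There were 12 such genes, and the brighter pair of probes had the same sign in 11 of them, against 82.9% of 1577 genes over the whole array. Both SMARCA1 probes were higher, at 1.84 and 1.44, and both KMT5B probes were lower, at -1.70 and -1.35, while another KMT5B probe, detected on neither array, was at 0.65. The exception was EZH2, at -0.26 and 0.06 on its brighter probes, while a dimmer probe, detected on the control array alone, was at -1.12. KMT2C had a second probe, detected on the knockdown-labelled array alone, at 1.40. Its other probes, detected on neither array, were at -0.09 and 0.09. KMT2E was less even, since another of its probes, detected on both arrays, was at 0.38, and KAT14 had a second probe, detected on neither array, at 0.80. The error of 1 probe's difference, as the SD implied by pairs of probes for the same gene over the 1577 genes, was 0.34. It covers probe error alone and leaves out any difference between cultures.

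**Figure D3:**
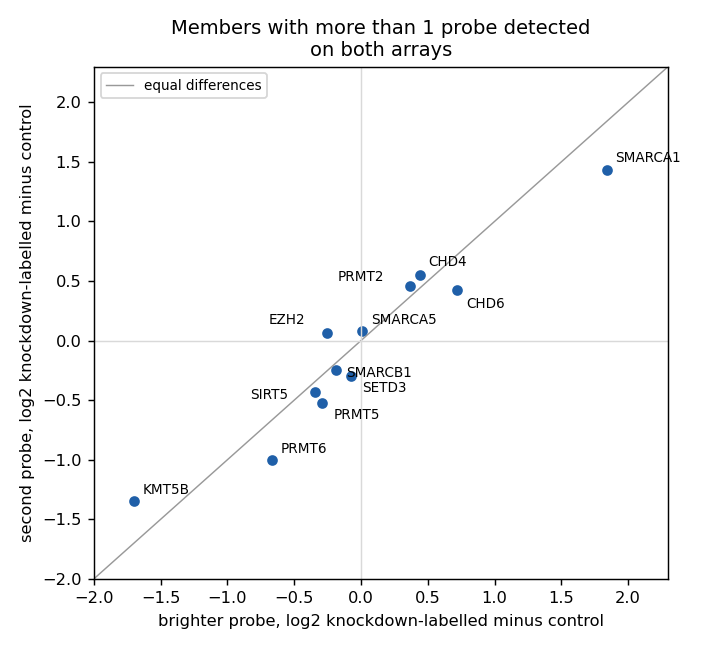
Log2 difference, knockdown-labelled minus control, on the second probe (vertical axis) against the brighter probe (horizontal axis) for the 12 members with at least a pair of probes detected on both arrays; the line marks equal differences. SMARCA1 lies at the upper right, KMT5B at the lower left, and EZH2 alone has probes on either side of 0.

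HSF1 is known to bind inverted repeats of the letters GAA, so the promoters of the members were searched for them. RefSeq promoter windows of 250 bases before to 50 after the start site (GRCh38.p14) were matched for 91 of the 101 genes. The letters GAANNTTC, which read the same on both strands, were found in 5 of these 91 (5.49%), in 4.58% of 6308 promoters of genes detected on both arrays and in 6.87% of all 27305 promoters. The other arrangement, TTCNNGAA, was in 2 of the 91 (2.20%), EZH1 and PRMT6. It was in 5.96% of promoters of genes detected on both arrays and in 7.84% of all promoters. The longer form, GAANNTTC with NNGAA after it on either strand, which holds both shorter forms, was in 0 of the 91. It was in 0.285% of promoters of genes detected on both arrays and in 0.487% of all promoters. Among the 11 members past 2-fold with a matched window, 3 held GAANNTTC. They are CHD9 (chr16:53054741-53054990, plus strand) and SETD1A (chr16:30957504-30957753, plus strand), both higher, and PRMT3 (chr11:20387466-20387715, plus strand), which was lower. The 250 bases before the start site of each are shown because these members pair a 2-fold difference with that motif, which is in capitals.
CHD9: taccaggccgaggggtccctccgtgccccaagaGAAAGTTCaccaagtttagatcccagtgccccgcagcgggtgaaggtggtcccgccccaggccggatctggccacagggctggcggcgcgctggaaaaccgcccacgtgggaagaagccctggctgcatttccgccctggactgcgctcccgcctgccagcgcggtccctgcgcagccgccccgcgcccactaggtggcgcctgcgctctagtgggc
SETD1A: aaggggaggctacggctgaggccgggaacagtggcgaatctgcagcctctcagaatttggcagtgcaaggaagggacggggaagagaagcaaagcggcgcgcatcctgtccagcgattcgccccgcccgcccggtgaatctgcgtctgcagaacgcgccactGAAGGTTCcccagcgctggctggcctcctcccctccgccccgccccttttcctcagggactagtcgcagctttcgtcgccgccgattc
PRMT3: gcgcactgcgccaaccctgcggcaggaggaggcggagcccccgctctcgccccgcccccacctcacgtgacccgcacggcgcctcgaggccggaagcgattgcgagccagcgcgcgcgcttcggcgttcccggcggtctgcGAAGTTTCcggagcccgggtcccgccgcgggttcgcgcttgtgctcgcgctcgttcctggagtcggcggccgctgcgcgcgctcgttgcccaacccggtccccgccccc
The motif starts 217 bases before the start site in CHD9, 88 in SETD1A and 109 in PRMT3. A match of these letters is a description of the sequence and no measure of binding. PRMT8 and SIRT4 held the same letters; PRMT8 was not detected on either array and SIRT4 was at 0.71. The median number of CpG pairs in the window was 28 over the members and 27 over the genes detected on both arrays.

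Among the remodellers, the alternative motors and the scaffold paralogues of SWI/SNF differed in opposite directions. The SWI/SNF complex is driven by either SMARCA2 or SMARCA4, known as BRG1. SMARCA4 had signals of 1030.7 on the knockdown-labelled array and 1971.3 on the control array, a difference of -0.78, against 1.19 for SMARCA2. A second SMARCA2 probe, detected on neither array, was at -0.11. The gap between the paralogues was 1.97 on the log2 scale, with an SD from probe error of 0.47. The scaffold paralogues of that complex ran the same way. SMARCC1 was at -0.86, with signals of 654.8 on the knockdown-labelled array and 1287.0 on the control array. SMARCC2 was at 0.49, with signals of 263.0 on the knockdown-labelled array and 207.7 on the control array, and the gap was 1.35. The shared core subunit SMARCB1, a tumour suppressor, was at -0.19, and the accessory subunits SMARCD1 and SMARCD3 were at -0.24 and -0.38, while SMARCE1 was detected on neither array.

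The ISWI motors also differed from each other. SMARCA1 was at 1.84, whereas SMARCA5, its paralogue in the same kind of complex, was at 0.01 on its brighter probe and 0.08 on the other. SMARCA1 lies on chromosome X, where the median of 226 other genes detected on both arrays was 0.16. The 30 such genes nearest to it had a median of 0.56, with 8 at least 2-fold higher and 0 lower. KDM6A is also on X, and its 30 nearest genes had a median of 0.33. The part of the surrounding region in these differences was not tested. The DNA repair relatives SMARCAD1 and SMARCAL1 were both at 0.28. In all, 11 of 12 SMARC genes were detected on both arrays, with 2 higher by 2-fold, 0 lower and a median of 0.01. Over all genes detected on both arrays, 9.89% were higher by 2-fold and 10.4% lower.

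In the CHD family, 8 of 9 genes detected on both arrays lay above 0, where 46.7% of all genes did. Several of the 8 did so by very little. CHD9 and CHD7, which share a subfamily, stood at opposite ends, at 1.55 and -1.26, a gap of 2.81. CHD6, of the same subfamily, was at 0.72 and 0.42 on its probes. Their signals on the control array, 103.2 and 106.4, were close to background. CHD8, a regulator of Wnt signalling, was at 0.01. CHD2 was at 0.79 with signals of 139.9 on the knockdown-labelled array and 98.5 on the control array, close to background. CHD4, the motor of the NuRD repressor complex, had signals of 1222.6 on the knockdown-labelled array and 1028.8 on the control array and was at 0.44 and 0.55 on its probes. Its paralogue CHD3 was at 0.02, CHD1L at 0.01 and CHD1 at 0.13, and CHD5 was detected on neither array. The family median was 0.13.

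Arginine methyltransferases were the family with the lowest median, -0.67 over 7 genes, with 6 of 7 below 0, where 53.3% of all genes were. PRMT3 (-1.38) alone passed 2-fold, where 20.3% of all genes did. PRMT1, which makes most of the asymmetric dimethylarginine in cells, had signals of 945.6 on the knockdown-labelled array and 1868.0 on the control array, a difference of -0.83. PRMT7 was at -0.83 as well, with signals of 95.1 on the knockdown-labelled array and 138.7 on the control array, near the detection limit. PRMT6, which methylates arginine 2 of histone H3, was at -0.67 and -1.01 on its probes. PRMT5, which makes the symmetric form of the mark, was at -0.29 and -0.53, and PRMT9, which acts on a splicing factor, was at -0.31. PRMT2 was the exception, at 0.37 and 0.46 on the probes detected on both arrays, and its gap to PRMT3 was 1.75. The brain enzyme PRMT8 was detected on neither array. Under the other settings the family median ran from -0.83 to -0.52.

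Among the lysine methyltransferases, 3 enzymes of lysine 4 of histone H3 were detected on both arrays, KMT2C at 1.11, SETD1A at 1.10 and KMT2B at 0.26, the last within the probe error of 0.34. KMT2A, founder of the family and a target of leukaemia translocations, was detected on the knockdown-labelled array alone with signals of 104.0 there and 76.1 on the control array, and KMT2D was detected on neither. Of 2 enzymes of lysine 20 of histone H4 detected on both arrays, 1 was past 2-fold, where 20.3% of all genes were. KMT5A, which adds the first methyl group there during the cell cycle, had signals of 264.5 on the knockdown-labelled array and 366.6 on the control array, a difference of -0.44. KMT5B, which extends it, was at -1.70, and KMT5C was detected on neither array. The KMT family as a whole had 1 gene of 4 higher and 1 lower, where 9.89% of all genes were higher and 10.4% lower. Its median was -0.09, which was 0.26 over 7 genes at a detection p under 0.05.

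The rest of the SETD group was mixed. SETDB2, an enzyme of the silencing mark on lysine 9 of histone H3, had signals of 291.9 on the knockdown-labelled array and 177.5 on the control array, a difference of 0.95. SETDB1, which places the same mark at transposons, was at 0.37. SETD9 was at -0.24, SETD3, best known for methylating actin, was at -0.07 and -0.30 on its probes, and SETD6 and SETD7 were detected on neither array. Over the 5 genes of the whole SETD group detected on both arrays, SETD1A among them, the median was 0.37. In the Polycomb repressive complex 2, which methylates lysine 27 of histone H3, no subunit reached 2-fold. Its catalytic subunit EZH2 had signals of 273.4 on the knockdown-labelled array and 338.6 on the control array, a difference of -0.26. The mark-binding subunit EED was at -0.23. SUZ12, the scaffold, was at 0.61, with signals of 3566.7 on the knockdown-labelled array and 2707.7 on the control array, and the paralogue EZH1 was detected on neither array.

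Lysine demethylases were mostly dim, with 5 of 14 detected on both arrays and 7 on neither. KDM1A, also called LSD1, which acts within corepressor complexes, had signals of 793.3 on the knockdown-labelled array and 1300.9 on the control array, a difference of -0.57. KDM2B was at -1.01. KDM5B, which removes methyl groups from lysine 4 of histone H3, had signals of 618.2 on the knockdown-labelled array and 423.9 on the control array, a difference of 0.72. The lysine 9 demethylase KDM3A, a gene that responds to low oxygen, was at 0.36 and its paralogue KDM3B at 0.22. KDM1B, KDM4B, KDM4C, KDM4D, KDM5C, KDM6B and KDM8 were detected on neither array, and KDM4A, with detection on the knockdown-labelled array and not on the control array, was higher by a bound of 1.28-fold. The family median was 0.22.

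The class I deacetylases all lay above 0, by small amounts, where 46.7% of all genes lay above 0. HDAC2 had signals of 1840.8 on the knockdown-labelled array and 1530.6 on the control array, a difference of 0.48. HDAC8 was at 0.37, HDAC3, the enzyme of the NCOR complex, at 0.25, and HDAC1 at 0.19 with signals of 6327.3 on the knockdown-labelled array and 6126.4 on the control array. The 7 genes of the other classes were dim. HDAC4 and HDAC6 were detected on the control array alone, and HDAC5, HDAC7, HDAC9, HDAC10 and HDAC11 on neither, as was HDAC11-AS1.

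Of the sirtuins, which use NAD, SIRT1 was the highest. This nuclear deacetylase of p53 and of histones had signals of 315.5 on the knockdown-labelled array and 200.7 on the control array, a difference of 0.86. The mitochondrial SIRT4 was at 0.71, with signals of 232.6 on the knockdown-labelled array and 163.1 on the control array. The nucleolar SIRT7 was at 0.56, with signals of 341.0 on the knockdown-labelled array and 258.6 on the control array. SIRT5, which removes succinyl groups in mitochondria, lay below 0 on both probes detected on both arrays, at -0.34 and -0.43, and its other probes, detected on neither array, were at -0.08 and 0.24. The cytoplasmic SIRT2 was detected on the knockdown-labelled array alone, and SIRT3 and SIRT6 on neither. The median over 4 genes was 0.64, the highest of the families with at least 3 genes detected on both arrays. Of the 4, 0 reached 2-fold, where 20.3% of all genes did.

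The acetyltransferases other than KAT14 that were detected on both arrays lay within 2-fold, from -0.26 to 0.55. KAT2A, also called GCN5 and a partner of KAT14 in the ATAC complex, had signals of 1286.1 on the knockdown-labelled array and 1758.6 on the control array, a difference of -0.26. KAT5, known as TIP60, was at -0.18 and KAT8, which acetylates lysine 16 of histone H4, at -0.06. KAT6A was the only 1 of 5 above 0, at 0.55, where 46.7% of all genes lay above 0. KAT2B, KAT6B and KAT7 were detected on neither array. Of the katanin genes, KATNIP was at 0.57 and KATNA1 at 0.18, KATNAL2 was detected on the knockdown-labelled array alone, and KATNAL1 and KATNBL1 on neither.

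Of 6 genes of DNA methylation and its removal, DNMT1 alone was detected on both arrays. The maintenance enzyme DNMT1 had signals of 2814.8 on the knockdown-labelled array and 3834.5 on the control array, a difference of -0.26. The de novo enzyme DNMT3B had signals of 77.0 on the knockdown-labelled array and 121.1 on the control array and was detected on the control array alone. It was at -1.09 on that probe, with the bound of 1.56-fold lower given above, and at -1.13 on another probe, detected on neither array. The other DNMT3B probes, also detected on neither array, were at -0.48, -0.07 and 0.01. The genes DNMT3A, DNMT3L, TET1 and TET2 were detected on neither.

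Related genes outside these symbols were read from 5 lists of partner subunits, readers and chaperones. Of the DNA methylation partners and histone chaperones detected on both arrays, 5 of 20 were lower by 2-fold and 2 higher, where 10.4% of all genes were lower and 9.89% higher. UHRF1, which brings DNMT1 to newly copied DNA, had signals of 449.4 on the knockdown-labelled array and 1358.5 on the control array, a difference of -1.54. TDG (-1.28), which excises oxidized methylcytosine, the remodeller HELLS (-1.19), and the histone chaperone genes ASF1B (-1.19) and CHAF1A (-1.13) were the other four. CHAF1B, the partner of CHAF1A in placing histones behind the replication fork, was detected on the control array alone, with signals of 89.7 on the knockdown-labelled array and 414.7 on the control array, a plain ratio of 4.62-fold. It was at least 6.92-fold lower after background correction and at least 4.33-fold lower without it. The higher pair were CBX5 (2.02), which encodes heterochromatin protein HP1 alpha, with signals of 881.2 on the knockdown-labelled array and 266.5 on the control array, and the repair glycosylase gene MBD4 (1.01). Without background correction, 3 of the 20 were lower and 1 higher, so the list's share past 2-fold depends on that correction. Genes of DNA replication lay lower than this list as a whole: 8 of 18 with detection on both arrays were at least 2-fold lower and 0 higher. Their median was -0.86, against -0.21 for the list, and 1 of 18 lay above 0, against 8 of 20 in the list. The part of cell cycle activity in the members' differences was not tested.

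For the counts in the other 4 lists, the shares over all genes detected on both arrays were 9.89% higher by 2-fold and 10.4% lower. Among subunits of corepressor complexes, 3 of 13 were higher, SAP18 (1.81) of the SIN3 complex and GATAD2B (1.02) and MTA3 (1.01) of NuRD, and 1 was lower, MTA1 (-1.11) of NuRD. Without background correction these counts were 1 and 0. Among other subunits of the SWI/SNF, INO80, SRCAP and TIP60 remodellers, 3 of 22 were lower and 0 higher, ACTR5 (-1.32) of INO80, the helicase-like RUVBL2 (-1.11) and SS18 (-1.02) of SWI/SNF. Among other writers and readers, 1 of 25 was higher, the acetyl-histone reader BRD2 (1.50), and 1 lower in the main setting and 0 without background correction, WDR5 (-1.21), the scaffold shared by the H3 lysine 4 methyltransferases. In the same list ING5, a reader of H3 lysine 4 methylation, was detected on the control array alone, with signals of 84.2 on the knockdown-labelled array and 172.5 on the control array, and was at least 2.51-fold lower after background correction and at least 1.85-fold lower without it. Of the Polycomb list, 0 of 16 passed 2-fold, and the largest difference was that of CBX2 (-0.92). The list medians were -0.21 for the methylation partners and chaperones, 0.29 for corepressors, -0.27 for remodeller subunits, -0.09 for writers and readers and -0.09 for Polycomb, beside -0.06 for all genes.

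The 5 other settings moved few members far. SMARCA1, CHD9, SETD1A, KMT5B, KAT14, PRMT3 and CHD7 stayed past 2-fold in each of 5 settings that change the background correction, the normalization, the offset, the probe summary or the table. The probe summary is the mean of probes detected on both arrays, so it repeats the main value for genes with 1 such probe. Of those named, this holds for CHD9, SETD1A, KAT14, PRMT3 and CHD7. All 60 members detected on both arrays kept their sign in these 5 settings. After quantile normalization the sign depends only on the probe's rank on each array, so changing the background correction or the offset could not reverse it.

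**Figure D4:**
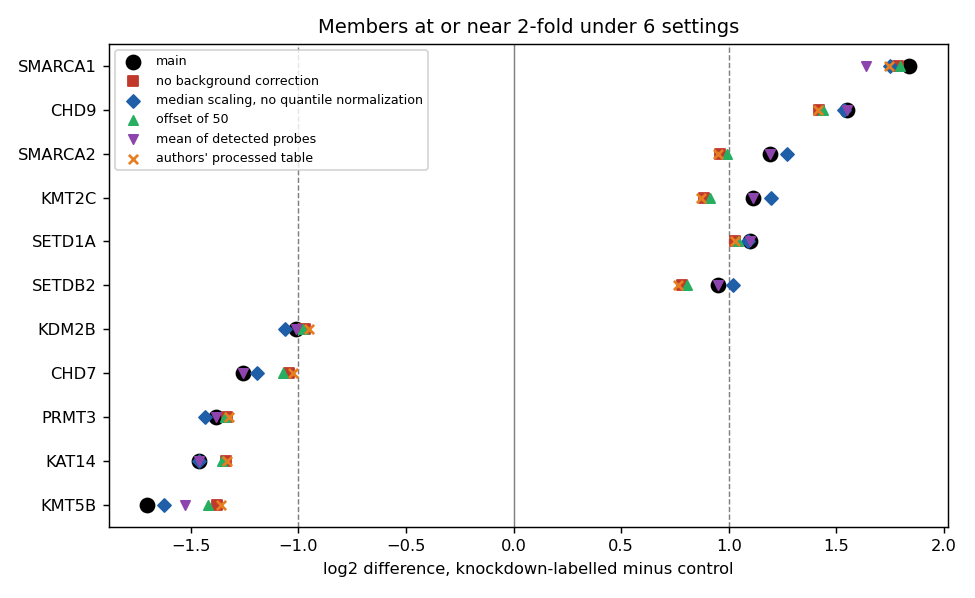
Log2 difference, knockdown-labelled minus control, of the 10 members past 2-fold and of SETDB2 under the main setting and 5 others; dashed lines mark 2-fold. KDM2B, KMT2C, SMARCA2 and SETDB2 cross the 2-fold line in some settings, and no gene crosses 0. The background and offset settings could not reverse a sign, and the probe mean repeats the main value for all but SMARCA1 and KMT5B.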

How the data were processed

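Total RNA of KYN2 cells was measured on 2 Illumina HumanWG-6 arrays, 1 labelled HSF1 knockdown and 1 labelled control, grouped by the labels. The deposited non-normalized table gives bead intensity values on a linear scale and, per the file headers, a detection column. That deposited detection column is a fraction that rises with the signal, so 1 minus its value was taken as the detection p. The authors' processed table holds log2 values centred near 0 (medians -0.00275 for the knockdown-labelled and 0.00222 for the control array). Its differences followed the log2 signal ratios with slope 0.981 over 10804 probes, while its baseline and software are not given in the labels or headers.

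Background correction, quantile normalization and log2 used the neqc function (limma 3.58.1, R 4.3.3) with an offset of 16. Probes with 1 gene symbol in the platform annotation of 2016 (27577) were used; probes with several symbols (13) or none (21212) were not. All 156 probes reported matched a RefSeq gene number. A gene detected on 1 array was set against the other array's lowest detected level (5.70 on the knockdown-labelled array, 5.84 on the control array, without the HSF1 probe) or its own level there, whichever was higher. The number of arrays, 1 a group, limits the precision, and no test is possible. The offset understates the differences of dim genes.

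In simulated data, 27 of 59 probes changed 2-fold and 54 of 58 changed 3-fold were called, as were 37 of 11153 unchanged probes. The simulated array was the control array with set changes and random noise of a chosen size, with no difference between cultures. The 37 calls therefore follow from that noise and give no error rate for the 2-fold calls on these arrays. Named were HSF1, the members past 2-fold, the next 3 of each family, other members to account for a family, and in the related lists the genes past 2-fold or else the largest difference; CHAF1B, ING5 and the liver markers named were added after their values were seen. The members and lists were chosen with earlier results of these data known, and the groups by histone residue and complex were formed after the values were seen. Alternatives changed the background correction, normalization, offset, detection threshold, probe summary, table and membership.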

Additional observations from a re-analysis of the deposited data

How the results depend on the processing

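No paired analysis was possible because each group holds 1 array. The count of members at least 2-fold higher, 5 in the main setting, was 3 without background correction, 3 with an offset of 50 and 3 in the authors' processed values, where SMARCA2 and KMT2C lay under 2-fold; these settings compress the differences of dim genes by construction. The median of the KMT family was 0.26 at a detection p under 0.05, where 7 genes are tested in place of 4. In the related lists, corepressors had 1 higher and 0 lower gene, and methylation partners and chaperones 1 higher and 3 lower, without background correction, with an offset of 50 and in the authors' processed values. Other writers and readers had 0 lower genes without background correction and in the authors' processed values, and 2 lower at a detection p under 0.05. With median scaling in place of quantile normalization, 1 Polycomb gene and 1 remodeller subunit were higher, and at a detection p under 0.05, 1 Polycomb gene was higher. Of 171 comparisons of a count or median with its main value, 149 stayed within 1.5 times the main count or within the SD of a single probe. Of 300 gene values in the alternatives, 1 moved further than that SD, KMT5B at -1.36 in the authors' processed values. The probe mean repeats the main value for every member with 1 probe detected on both arrays, so those values could not move. The bounds of KMT2E, KDM6A, CHAF1B and ING5 without background correction, an alternative chosen after seeing the data, were each smaller, and those of KDM6A and ING5 lay under 2-fold. The median of all genes ran from -0.07 to -0.03, and signal over background limits what can be said of the 32 members detected on neither array.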
